A study of Mus musculus with 4 samples.

Results

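NF-YA-only regions are places in the mouse genome where a strong NF-YA site was called and no NF-YB or NF-YC site lay beside it. To find them, the sites of the 3 subunits were pooled, and sites whose neighbouring centres lay within 200 bp were chained into 5350 regions. A region was kept when it held NF-YA sites only and its highest NF-YA tag count (sequenced reads assigned to the site) was 29 or more. This left 500 regions, which is 9.35% of all regions and 29.5% of the 1693 regions with NF-YA alone. Each of the 500 held a single NF-YA site. They were thus chosen by NF-YA tags and by the missing calls of NF-YB and NF-YC, so both are descriptions here and neither is tested. The choice also fixes that no NF-YB or NF-YC site chains to these regions, so distances below 200 bp are not findings.

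The study profiled E14Tg2a cells, a 129/Ola mouse embryonic stem cell line grown in serum with LIF, at passages 20 to 35, by chromatin immunoprecipitation and sequencing (ChIP-seq). Each group was 1 library: NF-YA (mouse monoclonal antibody), NF-YB (rabbit polyclonal), NF-YC (rabbit polyclonal) and input DNA without antibody. All came from the same line, after 10 min in 1% formaldehyde and shearing to about 200 to 500 bp, with 2 µg of antibody per precipitation. After duplicate positions were dropped, the NF-YA library kept 11479998 tags, the NF-YB library 13859303 and the NF-YC library 11390494, beside 13767116 tags of input. With 1 library per subunit there is no replicate check, and subunit, antibody and library cannot be told apart. Intervals below are exact (Clopper-Pearson) 95% binomial intervals over regions and cover counting error only.

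NF-Y is a trimeric transcription factor known for binding the CCAAT box, a common promoter element. NF-YB and NF-YC pair through histone-fold domains that resemble those of core histones, and NF-YA joins this pair and contacts the CCAAT bases. In the textbook account DNA binding needs all the subunits, so a strong NF-YA site without its partners' sites is the case the 500 regions put on view. In embryonic stem cells NF-Y is known from promoters of widely expressed genes and from enhancers.

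The 500 regions were the weaker part of the strong NF-YA sites. Their NF-YA tags had a lowest value of 29, a median of 39 and a highest value of 141, with 370 of them (74.0%) at 49 tags or fewer. Only 69 held 60 or more tags and 12 held 100 or more. The 1540 regions of all 3 subunits with the same minimum had a median of 78 NF-YA tags, and the regions of NF-YA with NF-YB (321) and of NF-YA with NF-YC (389) a median of 45 each. The bound of 29 tags cut through a continuous range: at 28 tags 25 of 71 NF-YA regions were of NF-YA alone, and at 29 tags 32 of 77. The median fold over input was 11.2 at 28 tags and 11.6 at 29 tags.

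Among the 2750 regions with 29 or more NF-YA tags, 18.2% (16.8 to 19.7) had neither partner. That share was 38.2% (33.6 to 42.9) at 29 to 34 NF-YA tags and 32.1% (28.2 to 36.3) at 35 to 44 tags. It was 19.1% (15.8 to 22.8) at 45 to 59 tags, 8.17% (6.24 to 10.5) at 60 to 99 tags and 2.04% (1.06 to 3.53) at 100 or more. The NF-YA-only class was thus the most frequent of the 4 classes in the lowest range and was rare in the highest, where 91.3% of regions held all 3 subunits. Since tag counts entered the choice, these shares describe the lists.

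**Figure D1:**
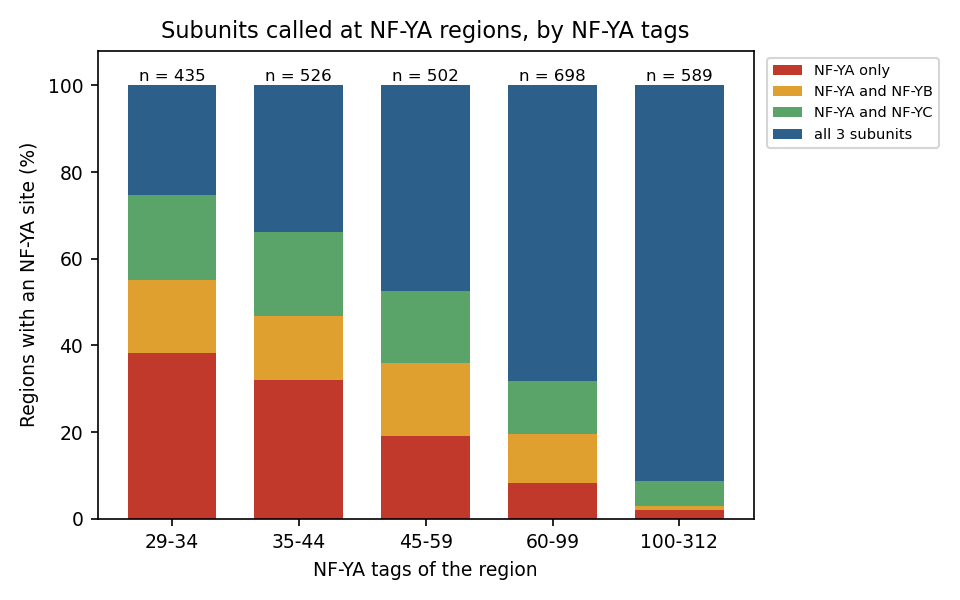
Share of regions (vertical axis, percent) holding NF-YA alone, NF-YA with 1 partner or all 3 subunits, in 5 ranges of NF-YA tags (horizontal axis), with the number of regions above each bar. The NF-YA-only share goes from 38.2% at 29 to 34 tags to 2.04% at 100 or more.

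The fold over input was low at the 500 regions beside the classes with a partner, and close to that of the weaker NF-YA-only regions. The fold is the authors' value, the NF-YA tags divided by scaled input tags, and it comes from the same comparison of NF-YA with input that chose the regions. It ran from 7.02 to 115 with a median of 11.7 (quartiles 8.99 and 17.2), against a calling minimum of 7. Where NF-YB was the only partner the median was 14.4, where NF-YC was the only one it was 17.1, and at regions of all 3 subunits it was 31.6. The 1193 NF-YA-only regions under 29 tags (median 18 tags) had a median fold of 10.8. A fold under 10 was found at 184 of the 500 regions (36.8%, 32.6 to 41.2) and at 35 of the 1540 regions of all 3 subunits (2.27%, 1.59 to 3.15), and at 497 of the 1193 weaker NF-YA-only regions (41.7%). At the other end, 46 of the 500 (9.20%) had a fold of 30 or more, against 805 of the 1540 (52.3%). Low folds were thus frequent at NF-YA-only regions of both tag ranges.

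The contrast in fold held at matched NF-YA tags. At 29 to 34 tags the median fold was 10.2 for the 166 NF-YA-only regions and 19.2 for the 110 regions of all 3 subunits. At 60 to 99 tags it was 12.5 for 57 NF-YA-only regions and 28.8 for 476 regions of all 3 subunits. The regions with a single partner lay between, at 12.8 and 14.4 in the lower range and 16.3 and 18.2 in the higher (NF-YB and NF-YC partners, respectively). At 100 or more tags the medians were 30.4 for 12 NF-YA-only regions and 43.2 for 538 regions of all 3 subunits, but here the regions with a single partner were lower, at 21.9 (6 regions) and 24.6 (33 regions).

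With equal NF-YA tags, a lower fold means more input tags. For 440 of the 500 regions the printed fold could be traced, within rounding of 0.005, to an integer input count after scaling for library size. The other 60 were all at least 100 bp wide. Input sequencing has no antibody step, but these counts are small and come from 1 library. The minimum fold of 7 also caps them: 29 NF-YA tags over 5 input tags would give a fold of 6.96. What sets these counts was not tested. They ranged from 1 to 12 with a median of 4 (quartiles 3 and 5.25), and a value of 1 may stand for no input tag. At least 4 input tags were found at 300 of the 440 (68.2%, 63.6 to 72.5) and at 623 of 1481 regions of all 3 subunits (42.1%, 39.5 to 44.6).

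Compared at like NF-YA tags, the NF-YA-only regions had the most input tags of the 4 classes in each range up to 99 tags. Their median was 4 input tags at 29 to 34 and at 35 to 44 NF-YA tags, against 2 for all 3 subunits in both ranges. At 45 to 59 tags it was 5 against 3, and at 60 to 99 tags 7 against 3. The classes with a single partner had medians between these values in each of those ranges. In the 12 NF-YA-only regions of 100 or more tags the median was 4.5 input tags, close to the 4 of all 3 subunits and below the 6 of either class with a single partner.

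**Figure D2:**
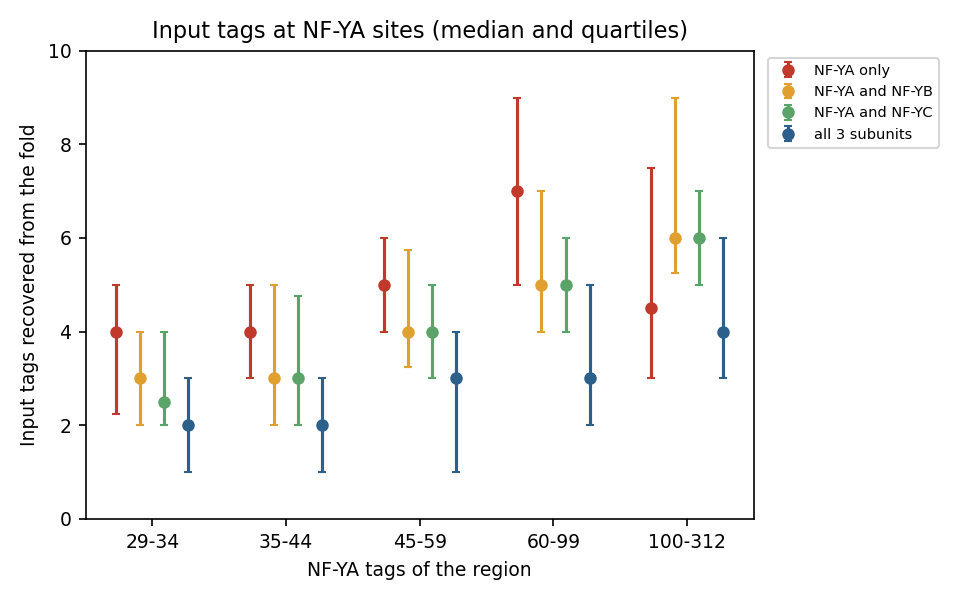
Input tags recovered from the authors' fold (vertical axis; points are medians, bars the quartiles) for the 4 classes in 5 ranges of NF-YA tags. NF-YA-only regions have the highest median up to 99 tags (7 against 3 for all 3 subunits at 60 to 99) and not at 100 or more.

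Sorted by input, the share of NF-YA regions without a partner was higher at higher input. Partners were called against the same input, so this describes the lists and is no test. At 29 to 44 NF-YA tags it was 16.9% (11.2 to 23.9) of 148 regions with 1 input tag and 15.8% (10.9 to 21.8) of 190 regions with 2. It was 30.1% (23.8 to 37.0) of 196 regions with 3 input tags, 44.9% (36.9 to 53.0) of 156 with 4 and 57.3% (48.3 to 65.9) of 131 with 5. The share with all 3 subunits went the other way, from 54.7% at 1 input tag to 10.7% at 5. These regions had nearly the same NF-YA tags throughout, with medians of 34 to 37 from 1 to 5 input tags. Few regions had more input. With 6 input tags, 60.6% of 33 regions were of NF-YA alone and 9.09% held all 3 subunits. With 7 the shares were 61.1% and 22.2% of 18 regions.

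Stronger NF-YA sites showed the same direction from a lower start. At 60 to 99 NF-YA tags, 2 of 73 regions with 1 input tag and 1 of 105 with 2 were of NF-YA alone. None of 114 regions with 3 input tags was, for which the exact interval allows a share of up to 3.18%. With 7 or more input tags 31 of 109 were (28.4%, 20.2 to 37.9). In this range NF-YA sites over 1 to 3 input tags thus nearly always had at least 1 partner called, which the sites of 29 to 44 tags did not.

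**Figure D3:**
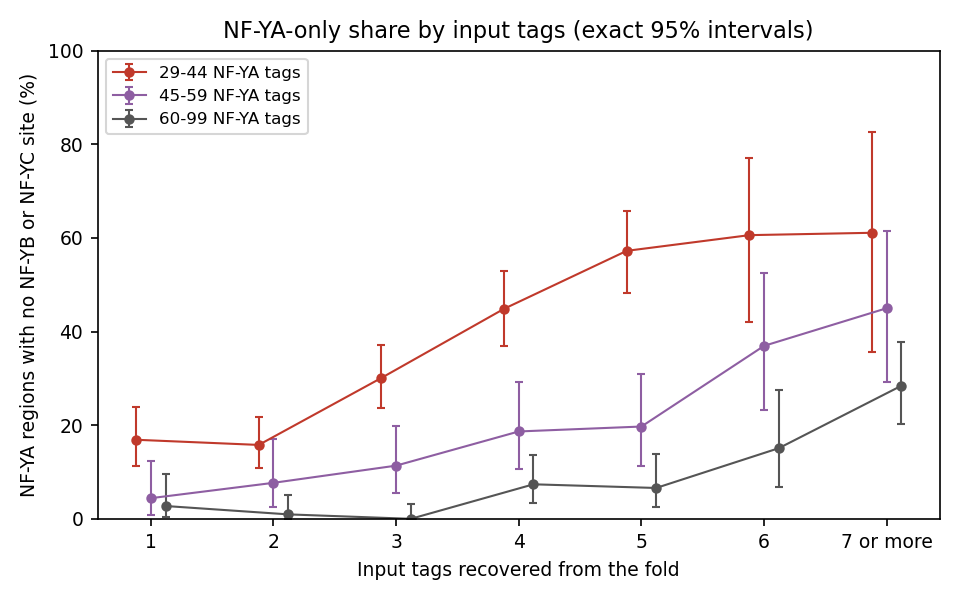
Share of NF-YA regions with no NF-YB or NF-YC site (vertical axis, percent, with exact 95% intervals) by recovered input tags (horizontal axis), for 3 ranges of NF-YA tags. At 29 to 44 tags the share goes from 16.9% at 1 input tag to 57.3% at 5.

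Input tags enter the calls of the partners too, since the NF-YB and NF-YC lists carry the same minimum fold of 7 against the same input. A site with 1 or 2 input tags needed 15 NF-YB or 14 NF-YC tags, the minimum of those lists. With 4 input tags the fold alone asks for 29 NF-YB or 24 NF-YC tags, and with 7 input tags for 50 or 41. By this arithmetic 373 of the 440 regions (84.8%, 81.1 to 88.0) needed more tags than the list minimum for either partner. The stretch counted for a partner may differ slightly from that for NF-YA: at regions of all 3 subunits the recovered counts of NF-YA and NF-YB were equal in 61.2% and within 1 tag in 89.7% of 1437 regions, and those of NF-YA and NF-YC in 66.3% and 89.0% of 1405.

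These required counts can be set beside what the partners reached where they were called. At 29 to 34 NF-YA tags the NF-YA-only regions would have needed a median of 29 NF-YB tags. The 110 regions of all 3 subunits in that range held a median of 31 NF-YB tags (quartiles 21.3 and 42.8), and 61 of them (55.5%, 45.7 to 64.9) reached 29. For NF-YC the median requirement was 24 tags, the median count 24.5 tags, and 58 of the 110 (52.7%, 43.0 to 62.3) reached it. At 35 to 44 tags the requirements were 29 NF-YB and 24 NF-YC tags, reached at 64.0% and 63.5% of 178 regions of all 3 subunits, and at 45 to 59 tags 36 and 29, reached at 70.6% and 69.7% of 238. At 60 to 99 tags they were 50 NF-YB and 41 NF-YC tags, reached at 65.1% and 59.9% of 476 regions of all 3 subunits. In each of these ranges the median requirement lay below the median count of the called partner. Regions of all 3 subunits are in their class because both partners passed the tag and fold minima, which leaves out low partner counts. They also had fewer input tags in these ranges. Their counts thus cannot show what a partner would have reached at the NF-YA-only regions. The NF-YB and NF-YC tags at the 500 regions themselves are not listed, and the part of input in the missing calls was not tested.

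**Figure D4:**
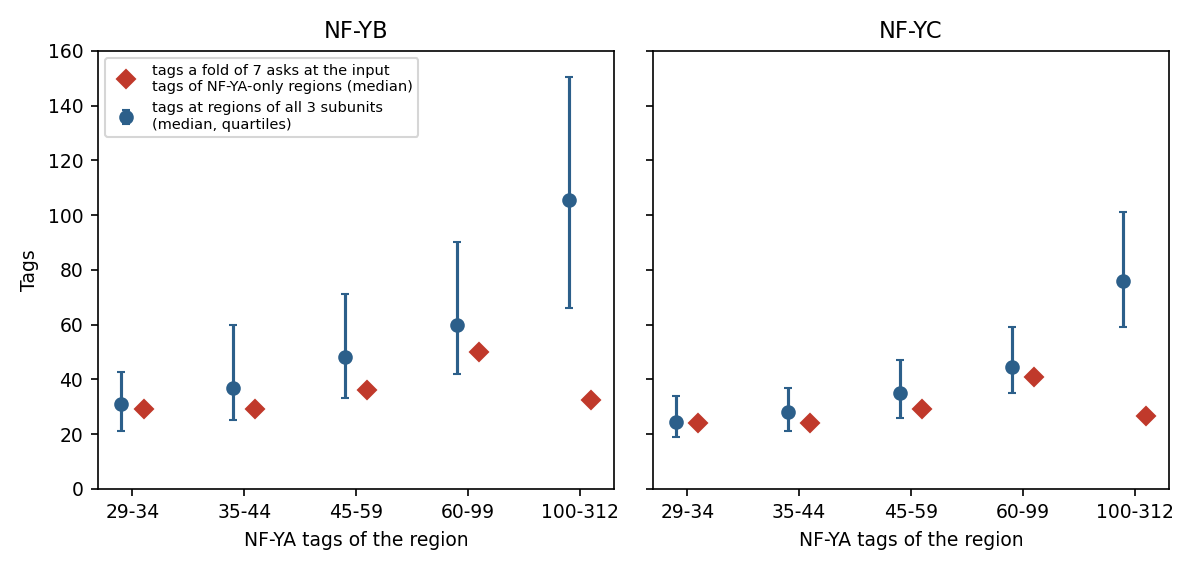
NF-YB tags (left) and NF-YC tags (right) at regions of all 3 subunits (circles, median with quartiles) in 5 ranges of NF-YA tags, beside the median tags that a fold of 7 asks at the input tags of NF-YA-only regions (diamonds). The 2 values are close at 29 to 34 tags (31 and 29 for NF-YB) and far apart at 100 or more (106 and 32.5).

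In the range of 100 or more NF-YA tags the requirement was reached at nearly all regions of all 3 subunits. At the 12 NF-YA-only regions there the median requirement was 32.5 NF-YB and 26.5 NF-YC tags. Of 538 regions of all 3 subunits in that range, 522 (97.0%, 95.2 to 98.3) reached the former and 535 (99.4%, 98.4 to 99.9) the latter. NF-YA tags were not matched here, with medians of 109.5 at the 12 and 138 at the 538. The 538 were also in their class because both partners were called. The leading region by tags was at 119505731 to 119505771 of chromosome 5 (mm9) and had 141 NF-YA tags, 3 input tags and a fold of 56.4. It ranked 265 of 4631 NF-YA regions by tags, and its nearest NF-YB or NF-YC site was 299910 bp away. A call there would have needed 22 NF-YB or 18 NF-YC tags.

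Others of the 10 with most tags split by input. On chromosome 11 at 76164911 to 76164951 there were 121 NF-YA tags over 3 input tags (fold 48.4). Chromosome 8 at 93375691 to 93375731 had 104 tags over 3 input tags (fold 41.6), and chromosome 8 at 74050351 to 74050391 had 110 over 4 (fold 33.0). These 3 and the leading region had the lowest input of the 10. Chromosome 11 at 40508531 to 40508571 (139 tags, fold 27.8), chromosome 6 at 70914291 to 70914331 (111 tags, fold 26.6) and chromosome 3 at 95558831 to 95558871 (109 tags, fold 18.7) had 6, 5 and 7 input tags. The highest input of the 10 was found on chromosome 8 (48618891 to 48618951, 113 tags over 9 input tags, fold 15.1), chromosome 5 (130371531 to 130371571, 102 tags over 9, fold 13.6) and chromosome 15 (72897991 to 72898031, 102 tags over 10, fold 12.2). At the last 3 the fold minimum asks for 64 to 71 NF-YB tags.

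Ranked by fold, the leading NF-YA-only region lay on chromosome 5 from 127235631 to 127235671, with 96 NF-YA tags over 1 input tag and a fold of 115. It was followed by chromosome 13 at 97430191 to 97430251 (78 tags over 1 input tag, fold 93.5) and chromosome X at 49038031 to 49038131 (58 tags, fold 66.0, input not recovered). Chromosome 10 at 59437171 to 59437231 (100 tags over 2, fold 59.96) and chromosome 6 at 120307431 to 120307491 (48 tags over 1, fold 57.6) completed the first 5. For the 4 with a recovered count, a partner needed only the list minimum of 15 NF-YB or 14 NF-YC tags. NF-YA-only regions with 1 or 2 input tags numbered 67 of 440 (15.2%, 12 to 18.9), of which 12 had 45 or more NF-YA tags. The 369 regions of all 3 subunits with like input and 45 or more NF-YA tags held medians of 59 NF-YB and 45 NF-YC tags, and 12 and 10 of them, respectively, had 19 tags or fewer. They were also stronger in NF-YA, with a median of 78 tags against 49.5. The other 55 had 29 to 44 NF-YA tags, with a median of 32. In that range 172 regions of all 3 subunits with like input had a median of 36 NF-YA tags. Those 172 held medians of 31 NF-YB and 24 NF-YC tags, and 33 and 51 of them, respectively, had 19 tags or fewer.

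The lowest fold, 7.02, was shared by the regions at 140514651 to 140514711 of chromosome 1 and 135039191 to 135039231 of chromosome 7, which both had 41 NF-YA tags over 7 input tags. A fold of 7.20 followed at 21 regions. The first 3 of them in chromosome order were at chromosome 1 from 64168271 to 64168331 (72 tags over 12 input tags), chromosome 1 from 182781011 to 182781111 (30 over 5) and chromosome 2 from 33831411 to 33831451 (42 over 7). One further input tag would have taken a region below the NF-YA minimum at 79 of the 440 (17.95%, 14.5 to 21.9), against 11 of 1481 regions of all 3 subunits (0.743%, 0.371 to 1.33). NF-YA tags were not matched in this comparison: the class medians were 39 for NF-YA alone and 78 for all 3 subunits.

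The called NF-YA sites of these regions were mostly narrow, with a median width of 60 bp. A wide interval places the binding position less exactly. Of the 500, 181 were 40 bp, 131 were 60 bp and 188 (37.6%, 33.3 to 42.0) were wider, up to 460 bp. The last share was 31.5% (26.4 to 36.9) with NF-YB, 24.2% (20.0 to 28.7) with NF-YC and 21.3% (19.3 to 23.4) with all 3 subunits, but 48.4% in the 1193 NF-YA-only regions under 29 tags. The gap was smaller at like tag counts: at 29 to 34 tags 48.8% (41.0 to 56.7) of NF-YA-only regions and 40.9% (31.6 to 50.7) of regions of all 3 subunits were wider than 60 bp, and at 60 to 99 tags 15.8% and 18.3%. The intervals overlapped in both ranges. The widest sites were on chromosome 5 at 135484611 to 135485071 (460 bp, 46 tags), chromosome 3 at 89222351 to 89222791 (440 bp, 101 tags), chromosome 17 at 27461831 to 27462271 (440 bp, 39 tags). Another 3 measured 360 bp: 163807091 to 163807451 of chromosome 1 (43 tags), 113882651 to 113883011 of chromosome 12 (34 tags) and 69750331 to 69750691 of chromosome 13 (29 tags).

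Most of the 500 regions were far from any partner site, but wide spacing was general. The median distance to the nearest region of any kind was 53710 bp for the 500. It was 49550 bp for regions of all 3 subunits with 29 or more NF-YA tags and 64555 bp for the weaker NF-YA-only regions. Partner distances of those classes are not given here. For the 500, the median distance to the nearest NF-YB or NF-YC centre was 83680 bp (quartiles 27268 and 260140 bp). Only 23 of them (4.60%, 2.94 to 6.82) had one within 1000 bp. Just outside the chaining limit, 2 lay at 200 to 300 bp, 11 at 300 to 500 bp and 10 at 500 to 1000 bp. These counts depend on the chaining rule: the share within 1000 bp was 13.9% when sites were chained at 100 bp, 31.6% when their intervals had to overlap and 2.05% when they were chained at 500 bp. Of the 23, 13 lay beside a region of all 3 subunits, and in 18 the neighbour had more NF-YA tags. Regions of all 3 subunits are 32.2% of all regions, and a larger part of those with a partner site, from which these neighbours come. The neighbours' median was 74 NF-YA tags over the 21 that had an NF-YA site, against 36 for the 23 NF-YA-only regions. Over all regions with 29 or more NF-YA tags the medians were 78 for all 3 subunits and 39 for NF-YA alone.

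The closest was the wide site on chromosome 3 at 89222351, whose centre lay 230 bp from an NF-YC site. Its neighbour at 89222251 to 89222391 held 54 NF-YB and 30 NF-YC tags and no NF-YA site, and its interval overlapped that of the NF-YA site. On chromosome X, the region at 71516031 to 71516071 (40 NF-YA tags) also lay 230 bp from an NF-YC site, in a neighbouring region with NF-YA and NF-YC. That neighbour spanned 71515591 to 71516051, so here too the intervals overlapped. On chromosome 2, the region at 25080031 to 25080091 (30 tags) lay 330 bp from the NF-YB and NF-YC sites of a strong region (218 NF-YA tags, 174 NF-YB tags, 124 NF-YC tags). The regions of chromosome 6 (47763271 to 47763391, 35 tags) and chromosome 8 (72149111 to 72149171, 34 tags) both lay 350 bp from a partner site of a region of all 3 subunits.

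Spacing to other regions resembled that of the other classes. Another region of any kind lay within 10000 bp at 92 of the 500 (18.4%, 15.1 to 22.1), against 286 of 1540 regions of all 3 subunits (18.6%, 16.7 to 20.6) and 210 of 1193 NF-YA-only regions under 29 tags (17.6%, 15.5 to 19.9). The nearest region within that distance was again of NF-YA alone in 37 of the 92 cases (40.2%, 30.1 to 51.0), and 31.6% of all regions are of that class. Another NF-YA-only region of 29 or more tags lay within 1000 bp at 4 of the 500 and within 10000 bp at 14. A region of any kind lay within these distances at 32 and 92, and the 500 are 9.35% of all regions. The closest pair lay 580 bp apart on chromosome 7, at 27980791 to 27980831 (37 tags) and 27981291 to 27981491 (53 tags).

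At the other extreme stood regions with nothing near them. The most remote lay on chromosome X at 119511091 to 119511191, with 31 tags over 1 input tag and its nearest region 9099405 bp away. It was followed by chromosome 3 at 75760831 to 75760871 (34 tags, 3082940 bp), chromosome 4 at 65265971 to 65266011 (40 tags, 2194200 bp), chromosome 12 at 91050751 to 91050851 (31 tags, 1966880 bp) and chromosome 4 at 14753691 to 14753791 (55 tags, 1919825 bp). All 5 had low input, between 1 and 3 tags.

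The 500 regions were spread over all chromosomes except Y. Their number was highest on chromosomes 2 (43), 11 (41), 5 (40), 8 (39) and 7 (38) and lowest on X (9). Over the span that the 3 lists cover, chromosome 11 held 0.345 of them per Mb, the highest density, and X held 0.0565, the lowest apart from Y, against 0.197 in all. Regions of all 3 subunits had the same extremes, with 1.25 per Mb on chromosome 11 and 0.170 on X. As a share of regions with 29 or more NF-YA tags, NF-YA-only regions ranged from 11.2% on chromosome 19 (5.93 to 18.8) to 23.2% on chromosome 16 (13.9 to 34.9). The interval of each chromosome held the share of 18.2% over all chromosomes.

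**Figure D5:**
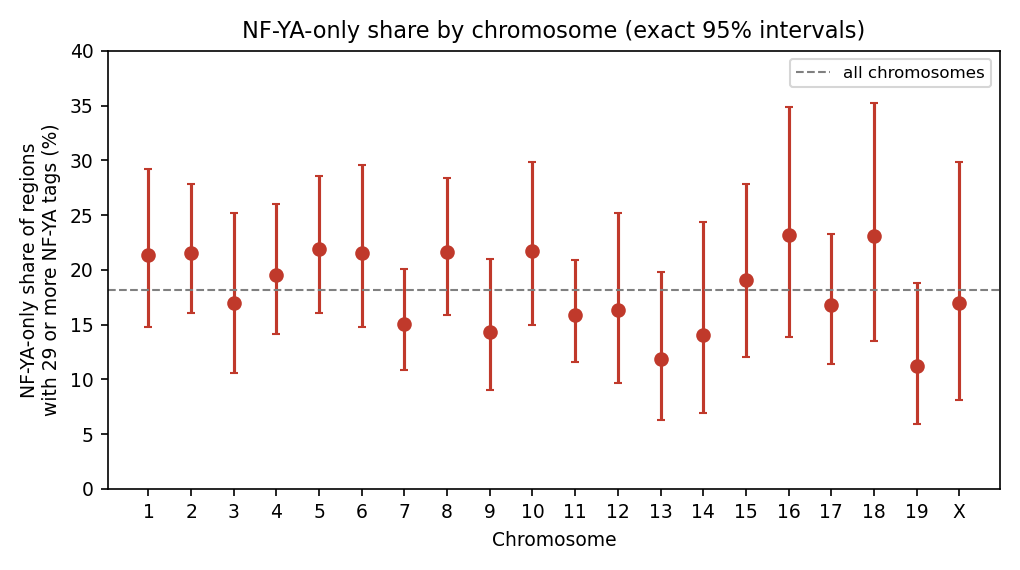
NF-YA-only share of the regions with 29 or more NF-YA tags on each chromosome (points, percent, with exact 95% intervals) and over all chromosomes (dashed line, 18.2%). Each interval includes the line, from 11.2% on chromosome 19 to 23.2% on chromosome 16; chromosome Y, with 1 such region and none of NF-YA alone, is not drawn.

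In windows of 5 Mb, 133 of the 257 windows that held any of the 500 held 1, and the fullest held 8. The windows with 8 lay on chromosome 10 (80000001 to 85000000), chromosome 5 (135000001 to 140000000) and chromosome 8 (70000001 to 75000000). They were also rich in other NF-YA sites, so that NF-YA-only regions made up 22.2% to 25% of their regions with 29 or more NF-YA tags. A window on chromosome 15 (25000001 to 30000000), singled out after its values were seen, held 6 such regions, of which 5 were of NF-YA alone, with 30 to 63 tags over 2 to 5 input tags. By contrast, the dense NF-Y stretch on chromosome 13 from 21500001 to 24000000, with bounds also set after its values were seen, held 30 regions with 29 or more NF-YA tags and no NF-YA-only region among them.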

How the data were processed

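The aligner was Bowtie and the build mm9, per the submitters' processing notes. Sites were called with SISSRs 1.4 per library against the input, with a p-value threshold of 0.001, a 20 bp window and 1 tag kept per position, per the file headers. The deposited tag counts are whole tags per site, not normalized. The stretch over which tags were counted is unknown here. The deposited fold, a ratio, divides the tags by scaled input tags, and the deposited p-value is the caller's.

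From these, regions were chained by centre (midpoint of start and end, 200 bp). Input tags were recovered as the whole number that gives the printed fold. The recovery takes 1 as its lowest value. The tags asked of a partner are 7 times its scaled input tags, rounded up, and at least its list minimum. Regions to name were the 10 with most tags, the 5 of highest and of lowest fold, the 5 closest to a partner, the 5 widest, the closest pair and the 5 most remote. The regions, rules and lists were chosen with earlier results of these data known. No p-value is given across regions, which are not replicates. On simulated lists, 1921 of 1921 planted NF-YA-only regions and 4642 of 4642 input counts were found. Those lists held only narrow, widely spaced sites over low input counts, with folds made by the formula that the recovery inverts. The simulation thus checks the code and not how well the recovery or the chaining works on the real lists. Genome sequence and gene annotation of mm9 were not used here, so no gene, promoter or CCAAT match is given. The input reads and the knockdown arrays were not analysed here. Software was scipy 1.17.1, numpy 2.4.6, matplotlib 3.10.9 and pandas 2.3.3 under Python 3.11.15.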

Additional observations from a re-analysis of the deposited data

How the results depend on the processing

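Of 79 alternative values (10 results in 8 settings, less 1 that could not apply), 58 stayed within the reported interval, or within 1.5 times the count, and 21 did not. The number of NF-YA-only regions stayed between 334 and 697. When printed intervals had to overlap, the share without a partner became 25.4%, the share with a partner site within 1 kb 31.6%, with another region within 10 kb 41.5% and wider than 60 bp 28.3%, the median fold 12.9 and the partners' medians 50 NF-YB and 40 NF-YC tags. Chaining at 100 bp gave 20.1% without a partner, 13.9% with a partner site within 1 kb and 26.4% with another region within 10 kb. Both settings split off sites closer than 200 bp by construction. Chaining at 500 bp gave 2.05% within 1 kb. A minimum of 25 NF-YA tags gave 21.1% without a partner. A minimum of 35 gave 14.4%, 32.0% wider than 60 bp, and 49 NF-YB and 39 NF-YC tags. Keeping only folds of 10 or more in every list gave 23.3% without a partner, 13.1% with another region within 10 kb, a median fold of 15.2, and 56.5 NF-YB and 44 NF-YC tags; fewer partner sites remain there by construction. Leaving out sites wider than 200 bp or chromosomes X and Y moved none of the results past its interval. The median of recovered input tags was 4 or 5 in every setting. No paired analysis was possible because there was 1 library per subunit, which also means that leaving out a replicate could not be tried. Depth limits what a missing partner shows: tags of NF-YB or NF-YC below the tag or fold minimum go unlisted, so absence of a site is not absence of the subunit.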

Other observations

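Sites called in a single list had more input tags than sites of all 3 subunits in the other 2 lists as well. NF-YB-only regions with 29 to 44 NF-YB tags had a median of 3 recovered input tags (72 regions), against 2 at 314 regions of all 3 subunits with like NF-YB tags. With 45 or more NF-YB tags the medians were 5 (34 regions) and 3 (1065 regions). For NF-YC-only regions they were 4 (38 regions) against 3 (395 regions) at 29 to 44 tags, and 5 (29 regions) against 4 (814 regions) at 45 or more. The NF-YA-only regions had 4 against 2 and 6 against 3 in the same ranges. The ranges of 45 or more are open at the top, where the regions of all 3 subunits had more tags. A region of all 3 subunits had to pass the minimum fold against the same input in every list. The other 2 lists are thus no independent check, and the part of the calling rule in these differences was not tested. These are values of 1 library each, and no difference between the lists was tested.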
